A study of Mus musculus with 6 samples.

Results

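Toll-like receptors, cytosolic nucleotide-binding receptors and the proteins that carry their signals were followed in LSK cells, the lineage-negative, Sca-1-positive and c-Kit-positive fraction of bone marrow that holds the stem cells and multipotent progenitors of blood. The set was a fixed list of 39 gene symbols, and all 39 were found among the 55573 genes of the deposited table and passed the filter on low counts, which left 20646 genes to be tested. It comprises 4 cell-surface and 5 endosomal Toll-like receptors, 4 accessory proteins, 8 adaptors and kinases, 3 genes of the NOD pathway, 4 of the NAIP-NLRC4 inflammasome, 7 further inflammasome sensors, adaptors and effectors, 3 of the RIG-I-like pathway and 1 C-type lectin. The list names genes by function, and it was drawn up with earlier results of these data known.

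The comparison was between 3 wild-type libraries (Etv6+/+) and 3 mutant libraries of sorted LSK cells from bone marrow, all from C57BL/6J mice aged 3 months and with no treatment named in the labels. The mutant carries the R355X allele of Etv6, a transcriptional repressor of the ETS family, in the heterozygous state, although the genotype label gives only Etv6+/-. The series title names inflammatory response genes as the subject, and pattern recognition genes stand upstream of such responses. Nothing in the labels says that the replicates came from separate animals, so p-values measure only the spread between these libraries, which may be technical.

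Pattern recognition receptors bind conserved microbial molecules or signs of damage. Toll-like receptors signal from the plasma membrane or from endosomes through the adaptors MyD88 and TRIF, IRAK kinases and the ubiquitin ligase TRAF6, which leads to NF-kappaB and interferon regulatory factors. Cytosolic sensors of the NLR, NAIP and AIM families assemble inflammasomes that activate caspase-1. RIG-I-like receptors detect viral RNA and signal through MAVS. Hematopoietic stem and progenitor cells are known to express Toll-like receptors and to respond to their ligands by dividing and by producing myeloid cells.

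A single member, Cd180, passed the threshold of the test, and its RNA rose in the mutant. Its RefSeq promoter window is shown here with those of the neighbouring paralogues Naip6, Naip5 and Naip2 and of the neighbours Tlr1 and Tlr6. These families were taken because within each 1 gene had a larger difference than the others. Each sequence is the RefSeq window of up to 250 bases before an annotated start on GRCm38.p6 (mm10), given 5′ to 3′ on the strand of the gene, without bases that lie in exons of that gene in GENCODE M21. Capitals mark the ETS core GGAAG, searched on both strands, so that it reads CTTCC on the reverse strand.
Cd180, chr13:102693297-102693546, plus strand: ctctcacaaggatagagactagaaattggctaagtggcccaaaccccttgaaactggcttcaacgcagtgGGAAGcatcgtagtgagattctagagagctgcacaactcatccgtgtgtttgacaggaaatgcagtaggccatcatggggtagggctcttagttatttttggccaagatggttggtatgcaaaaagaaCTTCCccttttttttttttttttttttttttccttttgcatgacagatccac
Naip6, chr13:100316676-100316866, minus strand: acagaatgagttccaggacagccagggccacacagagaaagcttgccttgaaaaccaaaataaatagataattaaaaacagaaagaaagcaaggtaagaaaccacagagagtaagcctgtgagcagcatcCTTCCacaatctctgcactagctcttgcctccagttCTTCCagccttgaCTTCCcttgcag
Naip5, chr13:100247337-100247586, minus strand: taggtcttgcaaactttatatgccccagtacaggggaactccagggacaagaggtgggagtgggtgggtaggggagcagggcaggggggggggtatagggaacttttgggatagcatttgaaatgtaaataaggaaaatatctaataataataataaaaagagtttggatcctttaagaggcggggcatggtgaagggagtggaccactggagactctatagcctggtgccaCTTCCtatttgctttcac
Naip2, chr13:100202123-100202372, minus strand: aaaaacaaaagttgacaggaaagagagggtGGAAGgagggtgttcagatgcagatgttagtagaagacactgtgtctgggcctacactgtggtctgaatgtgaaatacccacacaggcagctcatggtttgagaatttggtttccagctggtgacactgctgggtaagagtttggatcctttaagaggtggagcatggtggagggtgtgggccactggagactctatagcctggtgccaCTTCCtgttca
Tlr1, chr5:64933564-64933808, minus strand: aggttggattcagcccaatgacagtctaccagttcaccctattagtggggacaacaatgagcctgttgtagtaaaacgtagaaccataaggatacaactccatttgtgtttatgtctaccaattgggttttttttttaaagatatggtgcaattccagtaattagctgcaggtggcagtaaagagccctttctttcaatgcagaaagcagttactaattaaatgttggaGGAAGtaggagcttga
Tlr6, chr5:64960098-64960298, minus strand: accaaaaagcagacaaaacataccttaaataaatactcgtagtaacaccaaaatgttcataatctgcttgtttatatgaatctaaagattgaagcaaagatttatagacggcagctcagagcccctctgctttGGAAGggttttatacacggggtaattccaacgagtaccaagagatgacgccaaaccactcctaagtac

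The Naip5 and Naip2 windows share an identical run of 34 bases, while the longest run that Naip2 shares with Naip6 is 8 bases and that of Naip5 with Naip6 is 6 bases. The Naip6 window lies in an intron of a second GENCODE transcript that starts further upstream. For that transcript the window is not promoter sequence, and which start LSK cells use was not tested. The comparison of Naip6 with the other windows is limited to that extent. The ETS core occurred 3 times in the window of Naip6, 2 times each in those of Cd180 and Naip2, and 1 time each in those of Naip5, Tlr1 and Tlr6. Over whole windows of 250 bases, the core was present in 33 of the 43 RefSeq starts of the 32 members that matched by symbol (76.7%), and in 64.1% of all 32851 starts. The longer ETS site CCGGAAGT, which contains the core, was in 0 of the 43 member windows and in 2.88% of all windows. A second ETS site, GAGGAAGT, which also contains the core, was in 4 member windows, those of Aim2, Nlrp1b, Pycard and Tlr1 (9.30% against 2.44% of all windows). A longer site of the NF-kappaB type was in that of Tlr3 (2.33% of member windows against 0.356% of all windows). These matches describe letters in the windows and do not show binding.

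Between 45.2 M and 92.2 M expected counts stood behind a library, and mutant replicate 1 had the most. The sort markers Kit and Ly6a summed to 457 to 545 CPM (each count divided by its library's total in M, with that total scaled by the TMM method) in wild type and 433 to 469 CPM in the mutant. Markers of other cells were present too. The 10 neutrophil genes of a marker list summed to 2609 to 2990 CPM in wild type and 2058 to 3475 CPM in the mutant, and the 7 lineage antigens to 96.1 to 115 and 107 to 161 CPM. The 11 B cell markers summed to 132 to 171 CPM in wild type and 183 to 414 CPM in the mutant, and the 14 macrophage markers to 126 to 138 and 132 to 199.8 CPM, both highest in mutant replicate 1. The 10 mast cell, basophil or eosinophil markers summed to 106 to 111 CPM in wild type and 128 to 138 CPM in the mutant, without overlap and with mutant replicate 2 the highest. Of the 8 tested, 8 were above 0 and 6 had an unadjusted p under 0.05, with a median of 0.59 on the log2 scale. The 10 T or NK cell markers summed to 103 to 130 and 117 to 157 CPM. Of the marker genes, Fcer1a of mast cells and basophils and Klrb1c of NK cells passed the adjusted threshold, both higher in the mutant and both under 7 CPM in every library. In these bulk libraries fewer cells of a type and less RNA per cell cannot be told apart. Etv6 itself, whose summed RNA need not tell the alleles apart, measured 454, 419 and 400.1 CPM (wild type) against 305, 341 and 386 CPM (mutant), and the groups did not overlap. Mutant libraries held 81.0% of the wild-type level (approximate 95% interval 72.1% to 91.1%), which edgeR did not call (adjusted p = 0.245). The exact permutation test (two-sided) gave p = 0.1, and 3 against 3 cannot give less.

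Across the list, 1 of 39 members was higher in the mutant at an adjusted p under 0.05 (quasi-likelihood test of edgeR, Benjamini-Hochberg adjustment) and 0 were lower, against 39 higher (0.189%) and 16 lower (0.0775%) of the 20646 genes tested (0.266% in all). At an unadjusted p under 0.05 there were 7 members, all higher in the mutant, namely Cd180, Tlr1, Naip6, Casp1, Nlrp1b, Aim2 and Irak2, or 17.9% beside 10.6% of all genes (5.83% higher and 4.80% lower). Genotypes did not overlap for 10 members, 7 higher and 3 lower in the mutant, or 25.6% beside 16.3% of all genes (8.45% higher and 7.84% lower). DESeq2 called 3 members, Cd180, Tlr1 and Naip6, beside 1.64% of all genes, and limma-voom called Cd180 alone, beside 0.199%. The median log2 fold change was 0.099 over the members and 0.0019 over all genes, and 25 of 39 members (64.1%) lay above 0 beside 50.6% of all genes. Without mutant replicate 1 the members' median was 0.043 and 22 lay above 0. Mutant replicate 1 held the highest value for 17 of the 39 members, more than any other library, and the lowest for 7.

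**Figure D1:**
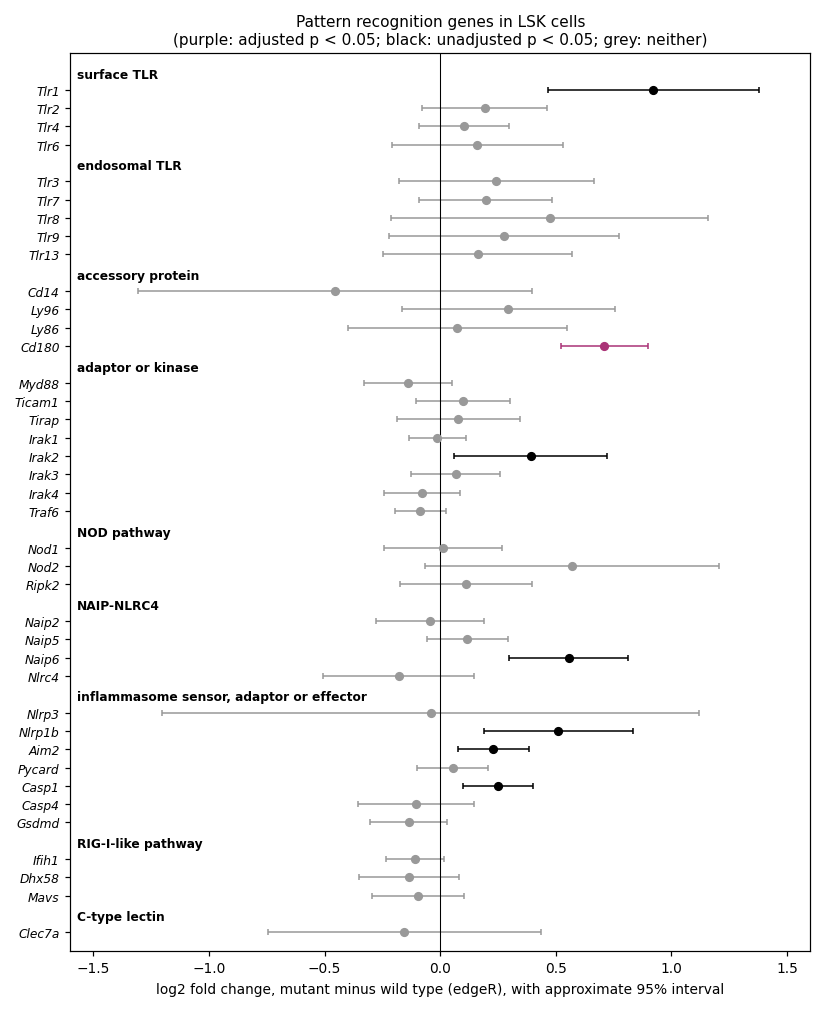
Each point is a member's log2 fold change, mutant minus wild type, from edgeR with an approximate 95% interval (3 libraries per genotype), grouped by receptor class. Cd180 alone passed the adjusted threshold, at 0.71, and all 9 Toll-like receptors of the list lie to the right of 0.

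Per kilobase of exon sequence, the most abundant members in wild type belonged to the inflammasome and to the shared signalling steps. The length is the union of all annotated exons of a gene, whichever transcripts the cells make. In wild type Pycard stood at 70.3 CPM and Casp1 at 41.2 CPM, over 3800 and 1497 bases, so the order depends on that length. Casp1, the inflammatory protease, led with 27.5 ± 1.08 CPM per kilobase (SD, n = 3), followed by the kinase gene Irak1 with 21.4 ± 0.330, the inflammasome adaptor Pycard with 18.5 ± 0.718, and Gsdmd, the pore-forming protein cut by caspases, with 18.2 ± 1.74. Pycard and Gsdmd did not differ beyond their spread on this scale. Cd180 came next with 14.6 ± 1.05. The Toll-like receptors were lower on the same scale, from 5.46 ± 1.07 for Tlr7 and 3.10 ± 0.138 for Tlr4 down to 0.355 ± 0.126 for Tlr8. Cd14 (0.338 ± 0.120), Nod2 (0.198 ± 0.0789) and Nlrp3 (0.0953 ± 0.0608) were the lowest of the list, and Nlrp3 rested on 7 to 41 expected counts per library.

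**Figure D2:**
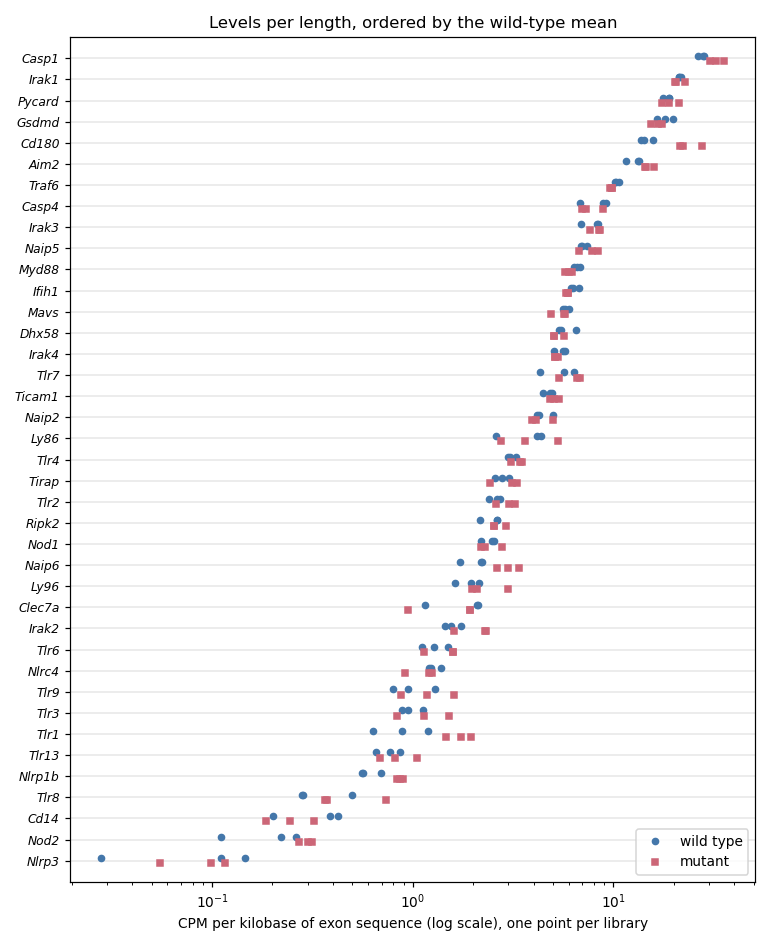
Levels of the 39 members per kilobase of exon sequence on a log scale, 1 point per library, ordered by the wild-type mean. Casp1 is highest and Nlrp3 lowest, and the mutant points of Cd180, Tlr1, Naip6 and Nlrp1b lie to the right of the wild-type points.

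The accessory proteins held the one member of the list past the adjusted threshold in edgeR. Cd180, also known as RP105, is a relative of TLR4 without a signalling domain of the Toll type, found on B cells, macrophages and dendritic cells, where it modulates responses to lipopolysaccharide. The gene lies on chr13:102693558-102739629 (plus strand, mm10, GENCODE M21, as for all gene positions given here). It measured 70.8, 61.6 and 64.4 CPM in wild-type replicates 1, 2 and 3, and 124, 99.9 and 97.3 CPM in mutant replicates 1, 2 and 3. Every mutant library was above every wild-type library, and mutant replicate 1 was the highest. The level rose 1.63-fold (approximate 95% interval 1.43 to 1.86; log2 fold change 0.71, SE 0.096), and its adjusted p in edgeR was 0.0165. Without wild-type replicate 2 the adjusted p was 0.109 and without mutant replicate 2 it was 0.0520, with log2 fold changes of 0.67 and 0.76, and over all 13 alternatives it ran from 1.98e-09 to 0.109.

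Cd180 is also a B cell gene, and the B cell markers of the list stood higher in the mutant, with 11 of 11 above 0, 9 of them at an unadjusted p under 0.05 and no marker at 0 in every library. Their summed level was 151, 132 and 171 CPM (wild type) against 414, 256 and 183 CPM (mutant). In mutant replicate 3 that sum was close to the highest wild-type value, 183 beside 171 CPM, while Cd180 was 97.3 CPM beside a highest wild-type value of 70.8. Without mutant replicate 1, the library with the most B cell marker RNA, the log2 fold change of Cd180 was 0.59 (adjusted p = 0.0222). The ratio of Cd180 to Cd79a, a signalling chain of the B cell receptor, was 5.13 ± 0.811 in wild type and 4.73 ± 1.21 in the mutant (SD, n = 3), a difference within the spread. Such a ratio depends on the marker chosen. Mutant over wild type was 1.63-fold for Cd180, 1.86-fold for Cd79a, 1.34-fold for Cd79b and 2.15-fold for Pax5. The mast cell, basophil or eosinophil markers were also higher in all 3 mutant libraries, at 106, 111 and 108 CPM (wild type) against 135, 138 and 128 CPM (mutant), and so stood beside every member that was higher in all mutant libraries. The part of RNA from B cells or from these cells in the change of Cd180, or in the values of those members, was not tested. Exons of Cd180 overlap those of Mast4 on the opposite strand over 182 bases, 4.04% of the exon sequence, and reads there cannot be told apart because the counts were deposited as unstranded. Mast4 measured 65.8, 65.7 and 58.1 CPM (wild type) against 65.0, 69.8 and 69.8 CPM (mutant).

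**Figure D3:**
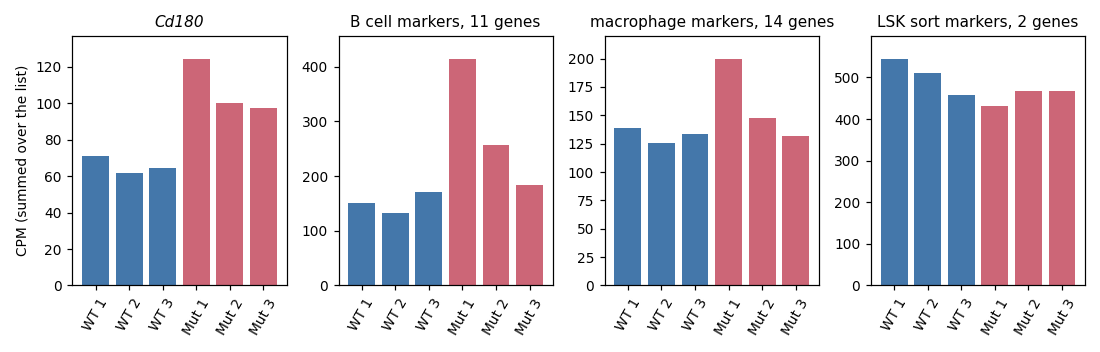
Bars give the CPM of Cd180 and the summed CPM of B cell, macrophage and LSK sort markers in each library, with wild type in blue and mutant in red. Cd180 and the B cell sum are both higher in all 3 mutant libraries than in any wild-type library. The B cell sum is 132 to 171 in wild type, 414 in mutant replicate 1 and 183 in mutant replicate 3.

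The other accessory proteins did not pass. Ly86, the gene of MD-1, which pairs with Cd180 at the cell surface, measured 15.1, 9.48 and 15.9 CPM (wild type) against 19.3, 13.2 and 10.03 CPM (mutant). Its genotypes overlapped and the replicates spread widely (log2 fold change 0.074, SE 0.24, adjusted p = 0.950). The ratio of Cd180 to Ly86 was 4.68, 6.50 and 4.05 in wild type and 6.44, 7.59 and 9.70 in the mutant. Ly96, the gene of MD-2, which binds lipopolysaccharide on TLR4, measured 1.94 ± 0.264 CPM (wild type) against 2.40 ± 0.570 CPM (mutant) (SD, n = 3). Cd14, which hands lipopolysaccharide to MD-2 and marks monocytes, was near the floor with 17 to 41 expected counts per library and 0.585 ± 0.208 CPM (wild type) against 0.433 ± 0.119 CPM (mutant). At that level a change could hardly be seen, and its approximate 95% interval ran from 0.404 to 1.32-fold.

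All 4 cell-surface Toll-like receptors of the list had log2 fold changes above 0, and none passed. Tlr1, which pairs with TLR2 to bind triacylated lipopeptides, measured 3.996, 2.13 and 2.98 CPM (wild type) against 6.56, 4.89 and 5.81 CPM (mutant). All mutant libraries were above all wild-type libraries. This was the largest ratio of the list at 1.89-fold (approximate 95% interval 1.38 to 2.60), with adjusted p = 0.194 in edgeR. DESeq2 called it (adjusted p = 0.00856; range over all alternatives 0.00766 to 0.515), and so did the fit without a count filter.

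Tlr6 lies beside Tlr1 on chromosome 5 (Tlr1 on chr5:64924679-64933563 and Tlr6 on chr5:64952031-64960097, both on the minus strand) and pairs with TLR2 for diacylated lipopeptides. It measured 5.56, 4.75 and 4.15 CPM (wild type) against 5.94, 5.95 and 4.26 CPM (mutant), with overlapping genotypes (log2 fold change 0.16, SE 0.19). The ratio of Tlr1 to Tlr6 was 0.718, 0.448 and 0.718 in wild type and 1.11, 0.823 and 1.37 in the mutant, every mutant value above every wild-type value. Of the 75-base words in the annotated transcripts of Tlr1, 10.3% also occur in Tlr6, so the counts of this pair depend in part on how RSEM divided shared reads. Tlr4, the lipopolysaccharide receptor and the highest of the class per length, measured 16.9, 16.6 and 18.1 CPM (wild type) against 19.4, 19.0 and 17.1 CPM (mutant). Its genotypes overlapped, as did those of Tlr2, the common partner of TLR1 and TLR6, at 7.81 ± 0.482 CPM (wild type) against 8.91 ± 0.973 CPM (mutant).

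Macrophage markers stood higher together with Tlr1, which mature myeloid cells and B cells also express. Of 13 macrophage markers tested, 11 were above 0 and 9 had an unadjusted p under 0.05, their median being 0.51 on the log2 scale, and the summed level was 138, 126 and 134 CPM (wild type) against 199.8, 148 and 132 CPM (mutant). None of these markers was at 0 in every library, and the macrophage gene Marco was at 0 in wild-type replicate 1. In mutant replicate 3 the macrophage sum lay within the wild-type range and Tlr1 was at 5.81 CPM, above every wild-type value. That sum joins markers that went different ways. In the same library C1qa, C1qc, Adgre1, Cd68, Spic and Marco were above every wild-type value. Vcam1 (30.1 CPM), Csf1r (15.0 CPM) and Cd163 (9.18 CPM) were below every one, and the other markers lay within the wild-type range. The part of macrophage RNA in these values was not tested.

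The 5 endosomal receptors of the list, which detect nucleic acids, also all had log2 fold changes above 0, with a median of 0.24. Of these, 0 passed and 0 had an unadjusted p under 0.05. Each value rested on 1 library to the extent that leaving it out brought the log2 fold change close to 0, namely to 0.0066 for Tlr3 without mutant replicate 2, to 0.049 for Tlr7 without wild-type replicate 3, and without mutant replicate 1 to 0.018 for Tlr9, 0.043 for Tlr8 and -0.023 for Tlr13. Tlr7, a receptor for single-stranded RNA and the highest of the class, measured 26.1, 23.3 and 17.5 CPM (wild type) against 27.9, 21.8 and 26.9 CPM (mutant). Wild-type replicate 3 was the lowest and the genotypes overlapped (log2 fold change 0.20, SE 0.15). Tlr3, the receptor for double-stranded RNA, was at 5.14 ± 0.649 CPM (wild type) against 6.07 ± 1.78 CPM (mutant), and Tlr9, the receptor for unmethylated CpG DNA, at 3.51 ± 0.865 CPM (wild type) against 4.24 ± 1.29 CPM (mutant). Tlr13, a mouse receptor for bacterial ribosomal RNA, was at 3.29 ± 0.455 CPM (wild type) against 3.67 ± 0.795 CPM (mutant). Tlr8 was the lowest at 1.27 ± 0.450 CPM (wild type) against 1.76 ± 0.763 CPM (mutant), with its highest value of 2.64 CPM in mutant replicate 1. Unc93b1, which carries these receptors to endosomes, measured 33.2, 32.1 and 35.3 CPM (wild type) against 40.8, 38.3 and 36.2 CPM (mutant) (adjusted p = 0.415).

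**Figure D4:**
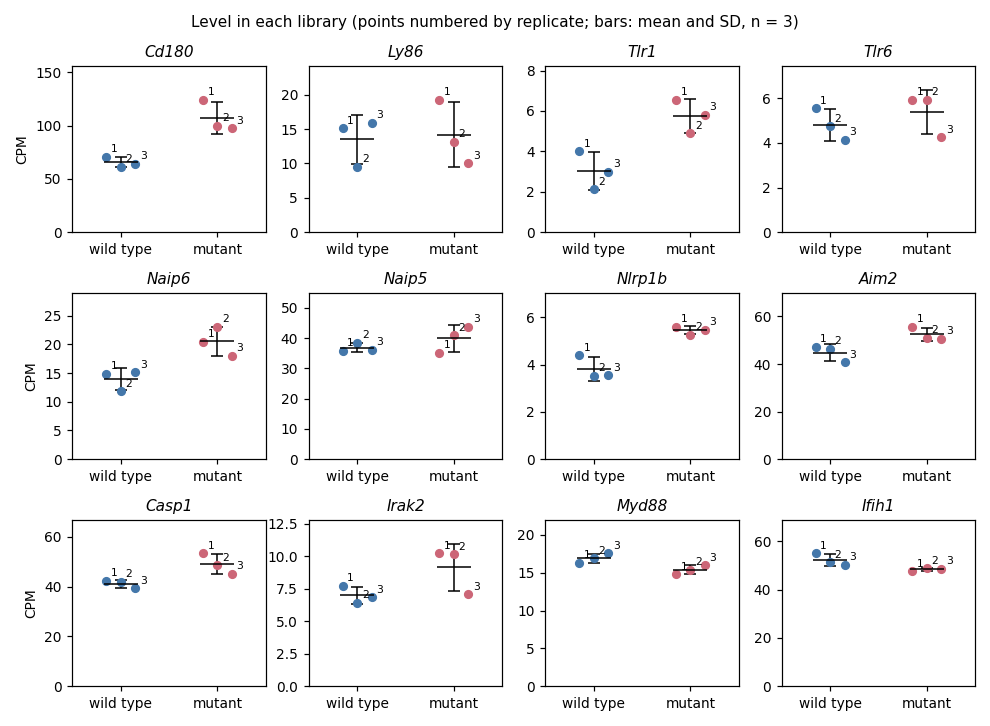
CPM of 12 members in each library, with points numbered by replicate and bars giving the mean and SD (n = 3). The genotypes are apart for Cd180, Tlr1, Naip6, Nlrp1b, Aim2 and Casp1, all higher in the mutant, and for Myd88 and Ifih1, both slightly lower.

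Adaptors and kinases shared by many receptors were spread around 0, with 4 of 8 above 0, 0 past the threshold and a median of 0.027 on the log2 scale. Irak1, the highest of the class per length, measured 100.2, 103 and 99.6 CPM (wild type) against 107, 95.7 and 96.6 CPM (mutant), a ratio of 0.991 with an approximate 95% interval from 0.910 to 1.08. Myd88, the adaptor of most Toll-like receptors, was at 16.3, 16.9 and 17.5 CPM (wild type) against 14.8, 15.4 and 16.0 CPM (mutant). Exons of Myd88 overlap those of Acaa1a on the opposite strand over 11.3% of the exon sequence, where unstranded reads cannot be told apart. Every mutant value of Myd88 was below every wild-type value, but the difference was small (0.909-fold, adjusted p = 0.663).

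Traf6, the ubiquitin ligase downstream of the IRAK kinases, showed the same order, at 80.8, 83.7 and 80.8 CPM (wild type) against 75.7, 77.5 and 77.8 CPM (mutant) (0.942-fold, adjusted p = 0.644). Irak2, a kinase of the sustained response, measured 7.71, 6.41 and 6.83 CPM (wild type) against 10.2, 10.2 and 7.08 CPM (mutant). Replicates 1 and 2 of the mutant were above all wild-type libraries, while replicate 3 lay among them (log2 fold change 0.39, SE 0.17, adjusted p = 0.449). Exons of Irak2 overlap those of Gm43963 on the opposite strand over 4.44% of the exon sequence. Gm43963 measured 0.982 ± 0.233 CPM (wild type) against 1.44 ± 0.408 CPM (mutant). Irak4, which starts the kinase cascade, was at 27.5 ± 1.83 CPM (wild type) against 26.1 ± 0.581 CPM (mutant), and Irak3, an inhibitory member of the family, at 28.9 ± 3.15 CPM (wild type) against 30.3 ± 2.00 CPM (mutant). The adaptors Ticam1 (TRIF) and Tirap were at 14.2 ± 0.750 CPM (wild type) against 15.2 ± 0.724 CPM (mutant) and at 13.8 ± 1.14 CPM (wild type) against 14.6 ± 2.28 CPM (mutant).

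Within the NAIP-NLRC4 inflammasome, which senses bacterial flagellin and secretion systems, Naip6 stood apart from its paralogues. Naip6, a flagellin receptor in the mouse, measured 14.9, 11.8 and 15.1 CPM (wild type) against 20.4, 23.1 and 18.0 CPM (mutant). The lowest mutant value was above the highest wild-type value. The ratio was 1.47 (approximate 95% interval 1.23 to 1.76), and the gene was not called by edgeR (adjusted p = 0.168). DESeq2 called it (adjusted p = 0.00494; range over all alternatives 0.00494 to 0.512), as did the fit without a count filter.

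Naip5, the other flagellin receptor and the highest of the class per length, was at 35.8, 38.6 and 36.2 CPM (wild type) against 35.1, 41.0 and 43.9 CPM (mutant), with overlapping genotypes (log2 fold change 0.12, SE 0.089). Naip2, which detects the rod protein of secretion systems, was at 20.2, 20.5 and 24.4 CPM (wild type) against 19.9, 24.2 and 19.0 CPM (mutant) (log2 fold change -0.044, SE 0.12). Naip6 made up 21.0, 16.7 and 20.0 percent of the summed CPM of the 3 genes in wild type and 27.1, 26.2 and 22.2 percent in the mutant. All mutant shares were above all wild-type shares. The difference between the paralogues was not tested. Nlrc4, the adaptor that all NAIP proteins recruit, measured 6.14 ± 0.441 CPM (wild type) against 5.41 ± 0.869 CPM (mutant) (SD, n = 3).

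The NAIP genes lie near each other on the minus strand of chromosome 13 (Naip2 on chr13:100144063-100202092, Naip5 on chr13:100211739-100246323 and Naip6 on chr13:100281121-100317674) and share sequence. Of the 75-base words in Naip6 transcripts, 12.0% also occur in other genes, most often in Naip5, and the value was 23.8% for Naip5 and 10.7% for Naip2. Values of these 3 genes therefore depend on the division of shared reads and are uncertain to that extent. Naip1 and the pseudogene Naip3, which also share words with them, were at 0.542 ± 0.217 CPM (wild type) against 0.549 ± 0.0776 CPM (mutant) and at 1.13 ± 0.0530 CPM (wild type) against 1.15 ± 0.243 CPM (mutant).

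**Figure D5:**
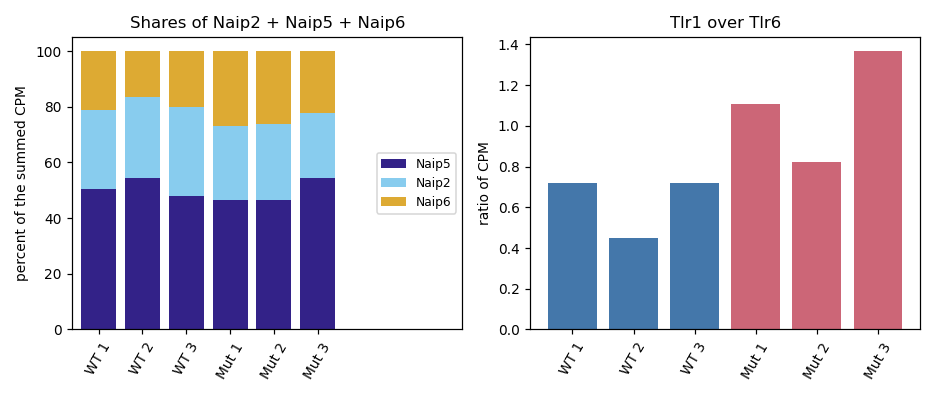
Left, the percent of the summed CPM of Naip2, Naip5 and Naip6 that each gene takes in each library. Right, the ratio of Tlr1 to Tlr6 CPM, which is 0.448 to 0.718 in wild type (blue) and 0.823 to 1.37 in the mutant (red), while the share of Naip6 is 16.7% to 21.0% in wild type and 22.2% to 27.1% in the mutant.

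Among the other inflammasome genes, the sensors Nlrp1b and Aim2 and the protease Casp1 were higher in every mutant library than in every wild-type library, and 0 of the 7 passed over all genes. Nlrp1b, a sensor of the NLR family, measured 4.40, 3.52 and 3.55 CPM (wild type) against 5.62, 5.28 and 5.48 CPM (mutant) (1.43-fold, adjusted p = 0.306). Aim2, the sensor of cytosolic DNA, was at 47.2, 46.3 and 40.7 CPM (wild type) against 55.8, 51.0 and 50.6 CPM (mutant) (1.17-fold, adjusted p = 0.337). Casp1 was at 42.3, 42.0 and 39.4 CPM (wild type) against 53.3, 48.6 and 45.2 CPM (mutant) (1.19-fold, adjusted p = 0.283). All 3 stayed above 0 under each of the 13 alternatives and were called under none.

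Pycard, which links sensors to caspase-1, was at 70.3 ± 2.73 CPM (wild type) against 72.9 ± 7.36 CPM (mutant). Its exons overlap those of Gm45205 on the opposite strand over 12.8% of the exon sequence. Casp4 (caspase-11 in older mouse nomenclature), the cytosolic lipopolysaccharide sensor, was at 30.8 ± 4.76 CPM (wild type) against 28.6 ± 3.83 CPM (mutant), and Gsdmd at 43.2 ± 4.13 CPM (wild type) against 39.3 ± 2.49 CPM (mutant). These 3 genotype pairs overlapped. Nlrp3, the sensor of cell damage and potassium loss, was detected at 0.387 ± 0.247 CPM (wild type) against 0.365 ± 0.127 CPM (mutant), too low for a difference to be seen at this depth (approximate 95% interval 0.434 to 2.17-fold).

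The NOD pathway, in which NOD1 and NOD2 bind peptidoglycan fragments and signal through the kinase RIPK2, had 3 of 3 members above 0 and 0 past the threshold. Nod2 was at 1.32, 1.11 and 0.554 CPM (wild type) against 1.36, 1.52 and 1.58 CPM (mutant). The groups did not overlap, but the lowest mutant value lay close to the highest wild-type value, and the interval of the ratio included 1 (1.48-fold, approximate 95% interval 0.955 to 2.31, adjusted p = 0.589). Ripk2 and Nod1 did not differ per length beyond their spread in wild type (2.47 ± 0.266 and 2.41 ± 0.190 CPM per kilobase, SD, n = 3). Ripk2 was at 7.40, 6.10 and 7.39 CPM (wild type) against 8.26, 7.17 and 7.13 CPM (mutant), with overlapping genotypes. Nod1 was at 12.2 ± 0.966 CPM (wild type) against 12.3 ± 1.61 CPM (mutant), and its direction turned when libraries were scaled by size alone.

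All 3 listed genes of the RIG-I-like pathway had log2 fold changes below 0, from -0.14 to -0.096, and 0 passed. Ddx58 (RIG-I), on the separate partner list described below, was at 69.6 ± 6.02 CPM (wild type) against 68.3 ± 6.96 CPM (mutant). Its genotypes overlapped (log2 fold change -0.028). Ifih1 (MDA5), a sensor of long double-stranded RNA, measured 55.0, 51.3 and 50.2 CPM (wild type) against 47.7, 48.8 and 48.7 CPM (mutant). The groups did not overlap, with a ratio of 0.927 (adjusted p = 0.604). Dhx58 (LGP2), a regulator of MDA5, was at 18.9 ± 2.02 CPM (wild type) against 17.2 ± 1.23 CPM (mutant), and the mitochondrial adaptor Mavs at 19.4 ± 0.714 CPM (wild type) against 18.1 ± 1.56 CPM (mutant), both with overlapping genotypes. Clec7a (Dectin-1), the receptor for fungal beta-glucan, which the deposited table annotates as a polymorphic pseudogene, was at 5.59, 3.03 and 5.54 CPM (wild type) against 5.09, 5.08 and 2.50 CPM (mutant). Wild-type replicate 2 and mutant replicate 3 were the low libraries, and the direction turned without mutant replicate 3.

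Partner genes of these pathways were taken from a separate list of 63 genes, of which 61 were tested. None was called by edgeR, DESeq2 or limma-voom, while 6 were higher and 4 lower in the mutant at an unadjusted p under 0.05 (16.4% of the partners beside 10.6% of all genes). Their median log2 fold change was 0.018. Of the Toll-like receptors among them, Tlr5 (log2 fold change 0.58) and Tlr11 (0.67) lay above 0 and Tlr12 (-0.22) below. Genotypes overlapped for each. Tifa, an adaptor that activates TRAF6, measured 24.5, 21.3 and 25.2 CPM (wild type) against 44.3, 30.2 and 26.1 CPM (mutant) (adjusted p = 0.321), and was highest in mutant replicate 1. Nlrp1a, the neighbour and paralogue of Nlrp1b, was at 8.69, 8.97 and 8.21 CPM (wild type) against 10.8, 9.92 and 12.4 CPM (mutant) (adjusted p = 0.378), and the genotypes did not overlap. Only 0.445% of the 75-base words of Nlrp1b occur in Nlrp1a.

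Txnip, a thioredoxin-binding protein that has been linked to NLRP3, measured 320.1, 209.6 and 202 CPM (wild type) against 332, 342 and 323 CPM (mutant) (adjusted p = 0.312). Wild-type replicate 1 lay near the mutant values and far from the other wild-type libraries. Tab2, a subunit of the TAK1 kinase complex, was at 181 ± 5.73 CPM (wild type) against 199 ± 3.10 CPM (mutant), and Nlrc5, a transactivator of MHC class I genes, at 61.1 ± 4.22 CPM (wild type) against 69.0 ± 5.41 CPM (mutant) (adjusted p = 0.436 and 0.458). The 4 partners with lower values belonged to different steps. Gsdme, a gasdermin cut by caspase-3, was at 74.7, 72.7 and 64.9 CPM (wild type) against 50.5, 62.7 and 60.1 CPM (mutant) (adjusted p = 0.278). Ninj1, which ruptures the plasma membrane of dying cells, was at 20.0 ± 1.41 CPM (wild type) against 15.4 ± 2.97 CPM (mutant) (adjusted p = 0.400). Cnpy3, a chaperone of Toll-like receptors, was at 34.9 ± 1.27 CPM (wild type) against 29.2 ± 3.44 CPM (mutant), and Tab1, a further TAK1 partner, at 10.2 ± 0.847 CPM (wild type) against 7.77 ± 1.20 CPM (mutant) (adjusted p = 0.381 and 0.389).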

How the data were processed

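RNA of sorted LSK cells was amplified to cDNA and sequenced as bulk libraries, per the labels' protocols. The authors deposited unstranded expected counts per gene, and Trim Galore 0.60, STAR 2.7, RSEM 1.31 and mm10 are named in the submitters' processing notes. The sources used here give no annotation release.

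These values were rounded to whole numbers. The 92 spike-in rows, all at 0, were left out. Genes were filtered by edgeR's default filter on low counts, scaled by TMM and tested with edgeR 4.0.16 (quasi-likelihood, genotype as the only term) in R 4.3.3, with Benjamini-Hochberg adjustment over 20646 genes and a threshold of 0.05. Intervals of ratios are approximate, at 95%, from the log2 fold change and its SE. DESeq2 1.42.0, limma-voom (limma 3.58.1), other scalings and filters, a replicate block and leaving out each library were the alternatives. Levels per length are CPM per kilobase of exon sequence, the union of all annotated exons of a gene in GENCODE M21. The scripts were tested on simulated data.

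Every library's value is given for members with p under 0.05, with groups that do not overlap or with the highest level per length of their class, and the others by mean and direction. Partners are named at an unadjusted p under 0.05. Naip1, Ddx58, Tlr5, Tlr11 and Tlr12 are named as well, as relatives of members. The members and lists were chosen with earlier results of these data known.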

Additional observations from a re-analysis of the deposited data

How the results depend on the processing

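Of the members' values under the 13 alternatives, 479 kept their direction and their side of the threshold, 20 turned, 4 crossed the threshold (Tlr1 and Naip6, under DESeq2 and without a count filter) and 2 lost it (Cd180). The count of genes past the threshold, 55, was 323 in DESeq2, 527 without a count filter and 16 to 67 when 1 library was left out. Members past it numbered 3 in DESeq2, 3 without a count filter and 0 to 1 when 1 library was left out. Partners past it numbered 3 without a count filter (Tifa, Gsdme and Txnip) and 0 to 1 when 1 library was left out. The Etv6 alternatives, and those of the partners other than DESeq2 and limma-voom, were chosen after seeing the data. The log2 fold change of Etv6 passed in DESeq2 (-0.31, adjusted p = 0.0491) and without a count filter (-0.30, adjusted p = 0.0111), with adjusted p from 0.0111 to 0.565 over all alternatives. The members' median stayed between 0.043 and 0.12. The cause of these shifts was not tested.

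With the replicate number as a block, 32 genes passed, 26 of them among the 55, and the call of Cd180 did not change. Same-numbered libraries did not deviate together (correlations of -0.020, -0.025 and -0.085), so the numbers were not taken as a pairing, and no library correlated best with its own number.

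Directions turned for members with small differences. Nod1 was at -0.029 with library size alone, and Nlrp3 at 0.30 in limma-voom and 0.10 with the replicate block. When 1 library was left out, log2 fold changes ran from -0.023 to 0.29 for Tlr13, -0.22 to 0.27 for Ly86, -0.014 to 0.20 for Tirap, -0.067 to 0.018 for Irak1, -0.020 to 0.12 for Irak3, -0.10 to 0.081 for Nod1, -0.15 to 0.047 for Naip2, -0.50 to 0.41 for Nlrp3, -0.025 to 0.12 for Pycard and -0.39 to 0.11 for Clec7a. Cd14 and Nlrp3 have no value under the filter of 1 CPM in 3 libraries, which left them out. Low counts limit what can be seen for these 2 genes.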
